A study of Homo sapiens with 8 samples.

Results

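Collagens are the main structural proteins of the extracellular matrix, and lung fibroblasts are among their chief producers. The 8 collagen genes described here are COL1A1, COL1A2, COL3A1, COL4A1, COL4A2, COL5A1, COL6A2 and COL6A3. They were chosen by the listed peaks themselves: a peak of RNA crosslinked to CTCF, on the strand of the gene, overlapped their span in at least 1 of the series' 2 peak lists. They were 8 of the 287 genes with a listed peak. The presence of a peak and its values therefore chose the members, and all values of peaks in these genes are given as a description with no test.

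The RNA was mapped by eCLIP in IMR90 cells, a line of human primary lung fibroblasts. In this assay protein and RNA are joined by ultraviolet light, CTCF is pulled down with its antibody, and the attached RNA is sequenced beside an input library made without the antibody. The 8 libraries formed 4 groups of 2 replicates, namely eCLIP and input of untreated, proliferating cells, and the same pair of libraries for cells given the agent labelled ICM, which induces senescence, a lasting stop of cell division. The titles gave wild type for the proliferating libraries alone and named a deletion or a transgene for no group. Nothing in the labels says whether the 2 replicates of a group were separate cultures. Each condition was represented by 1 list of peaks normalised to input, whose name refers to both replicates, so that values of single libraries were not at hand, and conditions are set side by side without an SD or a test.

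Collagen chains are translated on ribosomes bound to the endoplasmic reticulum, assembled there into triple helices, and exported. Types I, III and V form the banded fibrils of connective tissue, type IV forms the sheet of basement membranes, and type VI forms beaded filaments close to the cell surface. CTCF is known chiefly as a zinc finger protein that binds DNA and organises chromatin loops, and it also contacts RNA. For these genes, chosen by their peaks, the lists describe where along the gene and in which condition a CTCF peak was listed.

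The proliferating list held 30 peaks in 7 of the 8 genes, and the senescent list held 11 peaks in 2 of them. Over all protein-coding genes of the reference table, 0.269% had a listed proliferating peak and 1.14% a senescent one. Peaks within 50 nt of each other on the same strand were merged into sites, which gave 27 proliferating and 5 senescent collagen sites. The collagen genes thus held 23.1% of the 117 proliferating sites (exact 95% interval 15.8% to 31.8%) and 1.75% of the 286 senescent sites (exact 95% interval 0.570% to 4.03%). Intervals here cover counting error only and treat sites or peaks as independent, although several lay in the same gene. By genes, the shares were 10.1% of 69 (exact 95% interval 4.18% to 19.8%) and 0.813% of 246 (0.0986% to 2.91%). By listed peaks the shares were 20.4% of 147 (exact 95% interval 14.2% to 27.8%) and 1.92% of 572 (0.964% to 3.41%). By covered bases they were 14.3% (946 of 6625) and 1.46% (281 of 19249). The senescent list was the longer, and its collagen count was the lower by number as well as by share. These same peaks chose the genes, 6 of them through the proliferating list alone, so the difference is a description and was not tested. Among the 147 senescent peaks of highest signal value there were 0 collagen sites. Among the 147 with the highest -log10 p, a choice made after seeing the data, there were 2, both in COL6A2, which is 2.78% of the sites left. The cut by signal value lay above 5.23, and the highest proliferating collagen value was 5.14. No proliferating collagen peak would have passed it either, so the 0 does not set the conditions apart.

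**Figure D1:**
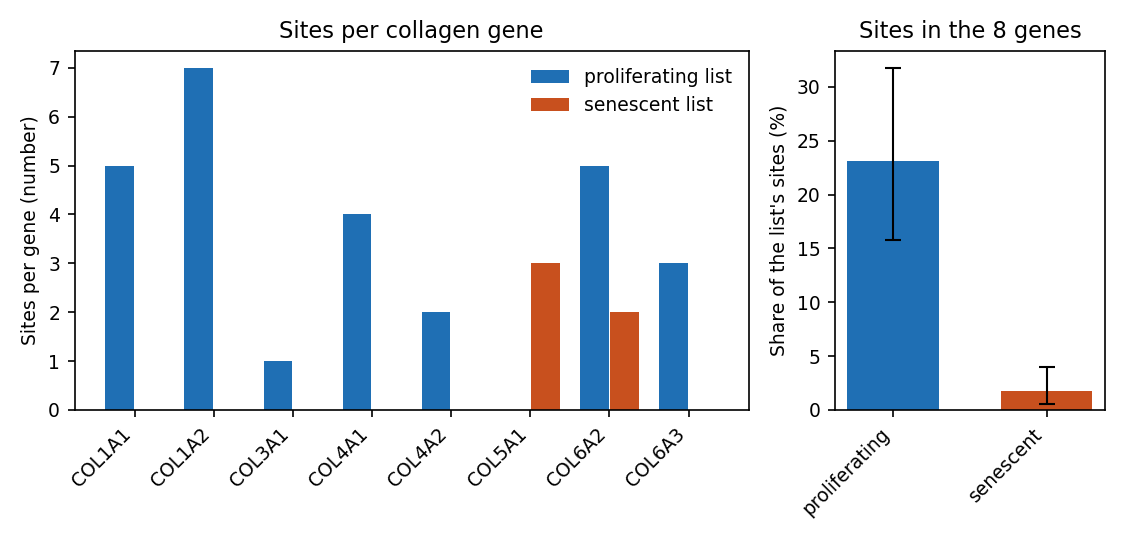
Left, number of sites in each of the 8 collagen genes in the proliferating and the senescent list, where a missing bar means no listed site. Right, share of all sites of each list in these genes (%), with exact 95% binomial intervals for counting error that treat sites as independent. The proliferating share is 23.1% and the senescent share 1.75%.

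COL6A2 alone had peaks in both lists, COL5A1 had peaks in the senescent list alone, and the other 6 genes had peaks in the proliferating list alone. Of all 69 genes of the proliferating list, 40.6% also had a senescent peak, against 1 of the 7 collagens listed there. Of all 246 genes of the senescent list, 11.4% also had a proliferating peak, against 1 of the 2 collagens. By position, 19.7% of all proliferating sites overlapped a senescent site on the same strand, and 2 of the 27 collagen sites did, both in COL6A2. A gene missing from a list had no listed peak, which does not show that its RNA was unbound, since no listed signal value was below 3.003.

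Type I collagen, the most abundant fibril collagen, consists of chains from COL1A1 and COL1A2. Together these genes held 12 proliferating sites made of 13 peaks, and no senescent site. COL1A1 (gene ID 1277) lies at chr17:50184101-50201631 on hg38, and its peaks were on the minus strand. It had 5 sites in a span of 17.5 kb, or 2.85 sites per 10 kb, the highest density among the 8 genes. The first 3 sites in the direction of transcription lay near the start of the gene, at chr17:50199418-50199419 with a signal value of 3.06, at chr17:50199303-50199321 with 3.28, and at chr17:50198433-50198450, where 2 abutting peaks had 3.09 and 3.003. Their middles were at 12.6%, 13.2% and 18.2% of the span, and no other collagen gene had a site in its first 20%. After a gap of 8700 nt without a listed peak, a site of 3 nt followed at chr17:50189730-50189732, and the last at chr17:50187876-50187908. The signal values of these were 3.03 and 3.01.

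The authors' signal value and their -log10 p against input gave unlike pictures of COL1A1. The signal values of all 6 peaks, 3.003 to 3.28, were close to the lowest of the list, and the lowest signal value of the whole proliferating list was that of a COL1A1 peak. The highest of them, 3.28, ranked 98 among the 147 proliferating peaks. The -log10 p of the same peaks ran from 27.4 to 49.2, apart from the 3 nt site, which was at the ceiling of 400. That was the only collagen peak at the ceiling in either list, of 13 proliferating and 36 senescent peaks there.

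COL1A2 (gene ID 1278, chr7:94394895-94431227) codes for the other chain of type I collagen. With 7 sites, each of 1 peak on the plus strand, it shared the highest number of sites in the proliferating list with PLEC, a gene for a cytoskeletal linker. Of these sites, 6 lay between 43.0% and 56.0% of the span. In order they were chr7:94410486-94410523 with a signal value of 3.18, chr7:94410889-94410891 with 3.57, chr7:94412584-94412606 with 3.12, chr7:94413943-94413947 with 3.48, chr7:94414222-94414223 with 3.26 and chr7:94415229-94415239 with 3.46. Gaps between them ran from 274 to 1692 nt. The last site, chr7:94421899-94421900, lay a further 6659 nt downstream at 74.3% of the span. Its signal value was 3.23 and its -log10 p was 50.4, the highest in this gene, where the others had 13.5 to 24.5. The middle of the gene was thus the part of COL1A2 with most sites, whereas in COL1A1 it held none.

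Peaks in the type I genes were narrow. Widths ran from 2 to 33 nt in COL1A1 and from 2 to 38 nt in COL1A2, and 7 of the 13 peaks were narrower than 10 nt. These were all of the proliferating collagen peaks under that width, and the whole proliferating list held 20. All 13 type I peaks had a -log10 p of at least 10, a mark that 55.1% of all proliferating peaks and 23 of the 30 collagen peaks reached.

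COL3A1 (gene ID 1281, chr2:188974373-189012746), the type III chain that joins type I in fibrils, had a single proliferating peak. It lay on the plus strand at chr2:189004102-189004142, at 77.5% of the span, with a signal value of 3.43 and a -log10 p of 5.84. No senescent peak was listed. Although its span of 38.4 kb was close to that of COL1A2, it had 1 site against 7.

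COL5A1 (gene ID 1289, chr9:134641803-134844843) codes for a type V chain, which takes part in starting type I fibrils. It was the exception among the fibril collagens, with 6 senescent peaks in 3 sites on the plus strand and no proliferating peak. The first site, chr9:134774857-134774912, at 65.5% of the span, joined a peak of 50 nt with a signal value of 3.88 and a peak of 6 nt with 4.77. The second, chr9:134780101-134780122, at 68.1%, joined 3 short peaks with 4.78, 4.77 and 4.75. The third, chr9:134809209-134809293, at 82.5%, was a single peak of 85 nt with 3.34. The -log10 p ran from 9.09 to 9.34 in the first site and from 9.69 to 15.3 in the second, and was 17.9 in the third, so that the site with the lowest signal value had the highest -log10 p. Within the senescent list the highest signal value of COL5A1 ranked 269 of 572. At a -log10 p of at least 10, which 62.2% of all senescent peaks reached, 8 of the 11 collagen peaks stayed, and both COL5A1 and COL6A2 were still listed.

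**Figure D2:**
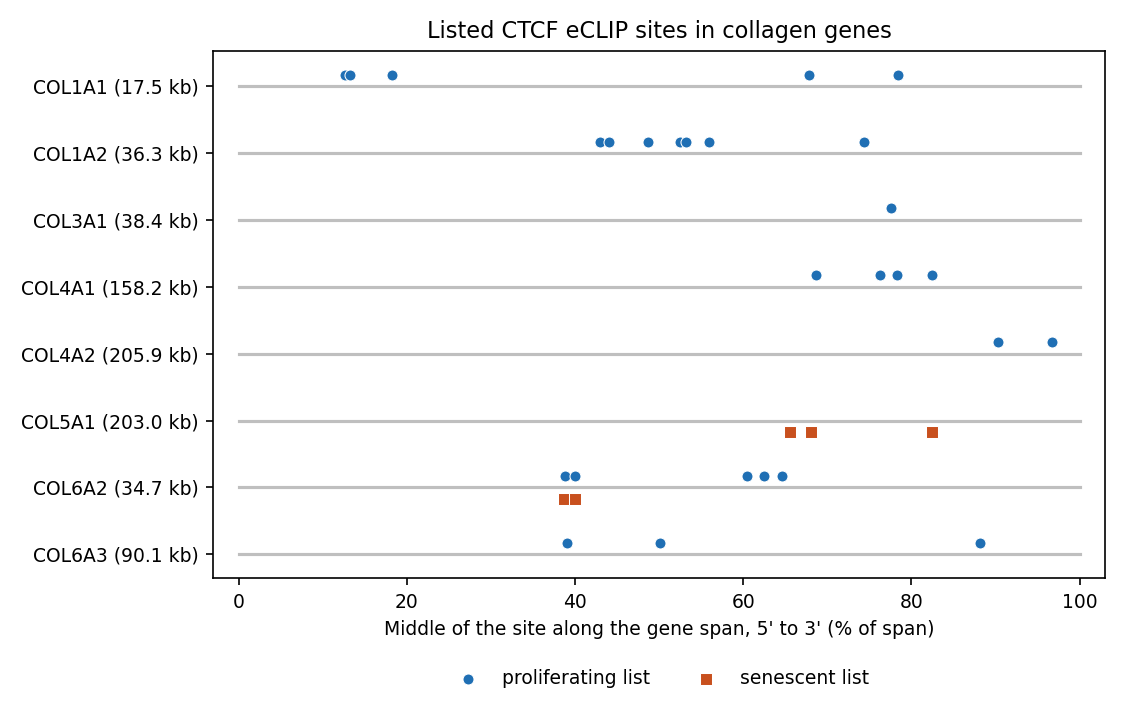
Each grey line is the span of 1 collagen gene from its 5′ to its 3′ end, drawn to the same length (span in kb beside the name), and points mark the middle of each site as a percent of the span, circles for the proliferating and squares for the senescent list. The 3 COL1A1 sites at 12.6% to 18.2% are the nearest to a gene start, and COL6A2 alone carries marks of both lists.

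COL4A1 and COL4A2 code for the chains of the most common type IV collagen and lie head to head on chromosome 13, with 127 nt between the starts of their spans. The pair had 6 sites, all in the proliferating list, and none lay near the shared start. COL4A1 (gene ID 1282, chr13:110148963-110307157, minus strand) had 4 single peaks between 68.7% and 82.5% of its span of 158 kb. In the direction of transcription they were chr13:110198477-110198529 with a signal value of 3.44, chr13:110186387-110186421 with 3.82, chr13:110183184-110183252 with 3.20 and chr13:110176653-110176678 with 3.02. COL4A2 (gene ID 1284, chr13:110307284-110513209, plus strand) had 2, at chr13:110493244-110493281 with 3.10 and at chr13:110506425-110506474 with 3.13. These were at 90.3% and 96.7% of the span, the latter being the collagen site nearest to a gene end as a share of the span. By distance the last COL1A1 site was nearer, with its middle 3791 nt from the gene end against 6759.5 nt.

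The -log10 p of type IV peaks was lower than that of type I peaks. In COL4A1 it was 5.84, 4.85, 10.0 and 3.37 in the same order, and in COL4A2 it was 6.54 and 7.69, so 1 of the 6 reached 10. No type IV peak overlapped the range of the type I peaks, whose lowest -log10 p was 13.5. The signal values, by contrast, overlapped, with 3.02 to 3.82 in the type IV and 3.003 to 3.57 in the type I genes. Several collagen peaks also shared a -log10 p. The value of 5.84 was given to 3 proliferating peaks, among them those of COL3A1 and COL4A1, and that of 4.85 to 2, those of COL4A1 and COL6A3.

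Type VI collagen is built from COL6A1 with COL6A2 and chains such as COL6A3. COL6A1 had no listed peak and is therefore not among the members. COL6A3 (gene ID 1293, chr2:237324018-237414164, minus strand) had 3 single proliferating peaks. The first, chr2:237378869-237378984, at 39.1% of the span, was the widest collagen peak with 116 nt and had a signal value of 3.72. The others lay at chr2:237368925-237368964 with 3.04 and at chr2:237334634-237334722 with 3.005, at 50.2% and 88.2% of the span. Their -log10 p was 11.8, 4.85 and 10.7. No senescent peak was listed.

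COL6A2 (gene ID 1292, chr21:46098112-46132848, plus strand) held the collagen peak with the highest signal value. Its proliferating sites numbered 5 and fell into 3 regions. The first region was a peak of 25 nt at chr21:46111566-46111590 with a signal value of 3.71. The second was a site of 3 abutting peaks at chr21:46111977-46112023, whose signal values in the direction of transcription were 5.14, 4.22 and 3.90. The value of 5.14 ranked 9 among the 147 proliferating peaks, and the next collagen gene by this measure, COL4A1, ranked 59. The third region held 3 single peaks after a gap of 7060 nt, at chr21:46119084-46119119 with 3.27, chr21:46119789-46119850 with 3.54 and chr21:46120515-46120574 with 3.35.

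In the senescent list COL6A2 had 5 peaks in 2 sites, which lay on the first 2 of these regions. The senescent site at chr21:46111529-46111591 contained the whole proliferating peak of 25 nt and reached 37 nt further towards the 5′ end, while the 3′ ends differed by 1 nt. Its peaks had signal values of 3.14 and 3.70. The senescent site at chr21:46111968-46112022 shared 46 nt with the proliferating site, which is 97.9% of the proliferating and 83.6% of the senescent site, and again the 3′ ends differed by 1 nt. Its 3 peaks had 4.09, 3.93 and 4.42. By signal value, the highest of the 3 pieces was nearest the 5′ end in the proliferating list and nearest the 3′ end in the senescent list. The latter piece was 3 nt wide. By -log10 p, the highest proliferating piece was the middle one (33.1), and the highest senescent piece was again nearest the 3′ end (64.0). The pieces had different bounds in the 2 lists, so no shift is read from this.

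The -log10 p of COL6A2 peaks was 13.8 to 33.1 in the proliferating list and 27.7 to 64.0 in the senescent list. In the second region it was 28.6 to 33.1 and 55.1 to 64.0. Read depth was not given, so these ranges stand side by side and no change in strength is read from them. The highest senescent signal value, 4.42, ranked 341 of 572 and the highest -log10 p ranked 47. No senescent peak was listed in the third region, where the proliferating -log10 p was 15.9 to 20.4.

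**Figure D3:**
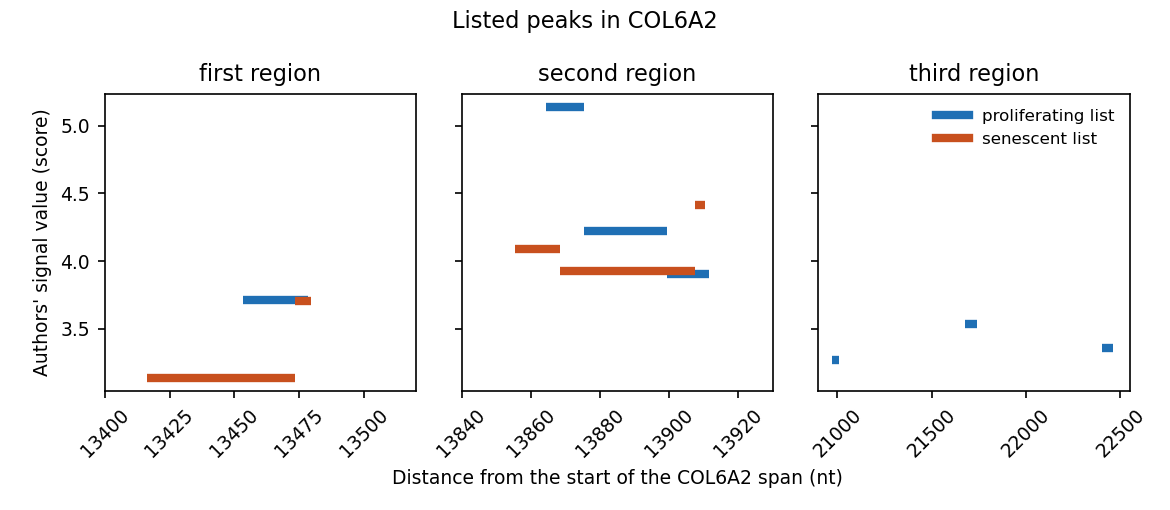
Listed peaks of COL6A2 in 3 regions, by distance from the start of the gene span (nt) and the authors' signal value (score); each bar runs from the first to the last base of a peak. Peaks of both lists cover the first and second region, with the proliferating maximum of 5.14 in the second, and the third region holds proliferating peaks alone; the 3 panels have different horizontal scales.

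On the opposite strand of some of these peaks a long non-coding RNA gene is annotated. LOC124905043 covers 4 of the 7 proliferating and all 5 senescent COL6A2 peaks, LOC124902301 covers 2 COL5A1 peaks, and COL4A2-AS1 covers 1 COL4A2 peak. The lists give these peaks on the strand of the collagen gene. For COL1A1, COL1A2 and COL3A1 the reference used gave no strand, and the strand of the peaks, which was the same for all peaks of a gene, was taken.

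Pooled over the 7 genes, the median -log10 p of proliferating collagen peaks was above, and the median signal value below, that of the other peaks, but the genes were not alike. The median signal value of the collagen peaks was 3.26, against 3.65 for the other 117 peaks of the list, and 22 of the 30 were under 3.5, as were 70 of all 147. Their median -log10 p was 17.1, against 9.59 for the others. Of the 30, 7 lay above the list's median by signal value, 4 of them in COL6A2. By -log10 p 22 lay above it, namely all peaks of COL1A1, COL1A2 and COL6A2 and 2 of the 3 in COL6A3, whereas all peaks of COL3A1, COL4A1 and COL4A2 lay below it. The 11 senescent collagen peaks had a median signal value of 4.09 against 4.72 for the others, and a median -log10 p of 17.9 against 12.3. There all 5 COL6A2 peaks and 2 of the 6 COL5A1 peaks lay above the median by -log10 p, and 4 COL5A1 peaks and 0 COL6A2 peaks lay above it by signal value. Widths had medians of 25.5 nt against 46 nt in the proliferating and 10 nt against 17 nt in the senescent list.

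**Figure D4:**
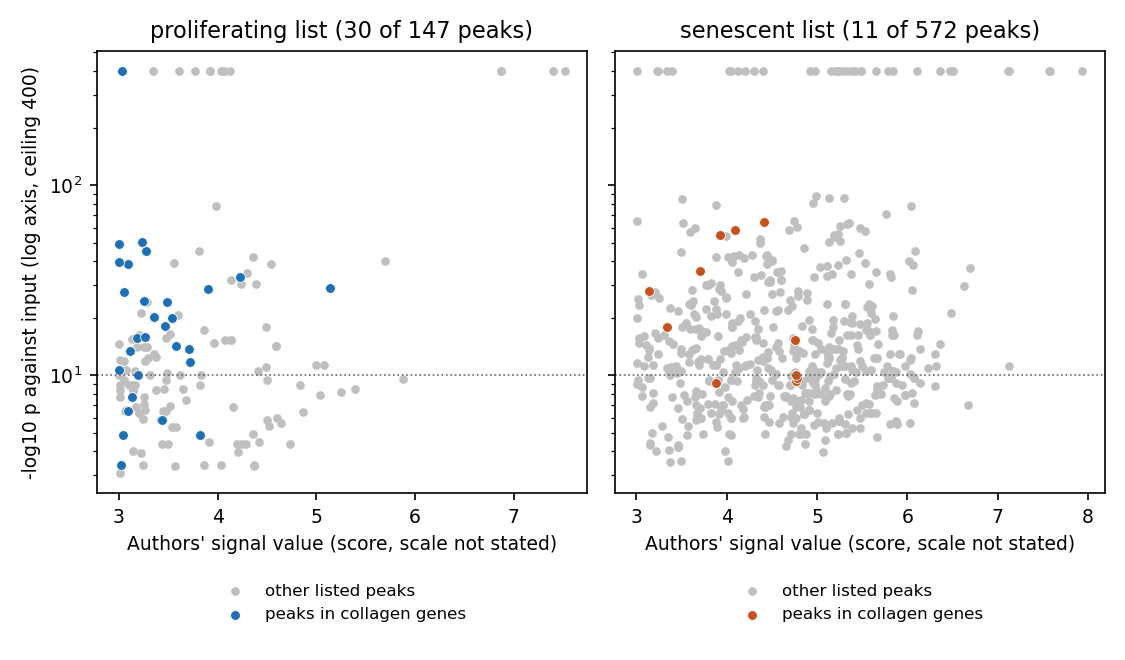
Authors' signal value (score) against -log10 p (log axis with a ceiling at 400) of every listed peak, with collagen peaks coloured and the dotted line at 10, for the proliferating (left) and the senescent list (right). Most of the 30 proliferating collagen peaks sit at the left edge, 22 of them under a signal value of 3.5, and 23 lie at or above the dotted line.

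Most collagen genes had more proliferating sites than most other genes of that list. The median was 4 sites per collagen gene and 1 per other gene, and 75.8% of the 62 other genes had a single site. These other genes included small RNA genes such as SNORA12 and RNU11, and the comparison took no account of gene length. Among the 11 genes with at least 3 proliferating sites, 5 were collagens. The other 6 were PLEC, FLNA, FLNC, TLN1, LMNA and EMILIN1, which code for cytoskeletal linkers, the nuclear lamina and a matrix glycoprotein. These 6 genes had 24 proliferating and 3 senescent sites, with a senescent site in 3 of them. The 5 collagens likewise had 24 proliferating sites, with 2 senescent sites, both in COL6A2. Sites in single-peak form made up 25 of the 27 proliferating and 1 of the 5 senescent collagen sites. The same held for 98 of all 117 proliferating sites and for 84 of all 286 senescent sites.

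Along the genes, the 27 proliferating collagen sites had a median position of 60.4% of the span (quartiles 43.5% and 76.9%), and the 73 other proliferating sites in protein-coding genes a median of 60.3%. No collagen site lay in the first 10% of a gene, where 10 of those 73 did. In the senescent list the 5 collagen sites had a median of 65.5%, against 51.1% for 262 others, of which 46 lay in the first 10%. Positions are in the whole span with introns, and exons were not used here.

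Other genes of collagen biology were counted in 6 groups. Over their 102 genes, 1 had a proliferating peak (0.980%) and 4 had a senescent peak (3.92%). The shares over all protein-coding genes were 0.269% and 1.14%. The 102 genes include 36 other collagen genes that had no listed peak by the choice of members. Their inclusion lowers both shares, so these are not read against those over all genes. Of 36 other collagen genes, 0 had a listed peak, which follows from the choice of members and is no separate result. Among 26 genes for collagen synthesis, folding and export, 2 were in the senescent list, namely P4HB, a subunit of prolyl 4-hydroxylase, and PLOD1, a lysyl hydroxylase. P4HB had a site at chr17:81846495-81846500 with signal values of 3.21 and 3.21, and PLOD1 had a site at chr1:11949774-11949856 with values from 3.18 to 3.66. Of 13 genes for propeptide cleavage and cross-linking, LOXL2, a lysyl oxidase family member, had 2 senescent sites with signal values from 3.02 to 4.73. None of 10 collagen receptor genes and none of 8 genes for collagen breakdown had a listed peak. LARP6, which binds the stem-loop of type I collagen messages, had none either.

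Of 9 genes for matrix proteins that associate with fibrils, DCN alone had a listed peak. DCN codes for decorin, a proteoglycan on the surface of collagen fibrils. Its proliferating peak at chr12:91146069-91146133 had a signal value of 3.44 and a -log10 p of 4.35. Its senescent site at chr12:91146074-91146157 had signal values of 4.89 to 6.06 and a -log10 p of 25.0 to 38.2. P4HB, PLOD1 and LOXL2 had no proliferating peak, as was so for most senescent-list genes, of which 11.4% had one.

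By the within-list percentile of the highest signal value in both lists, COL6A2 was at 94.6% of the proliferating and 40.6% of the senescent list. The 5 other genes nearest to it among the 28 listed in both were SLCO5A1, SNORA12, PLEC, PNN and RNU11. Of these, PLEC had 7 proliferating sites and 1 senescent site, and the other 4 had 1 and 1. This measure rests on 2 values per gene.

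Peak lists hold no expression level, so the identity of the cells could not be checked by marker levels. Of 7 fibroblast markers, DCN had a listed peak, and none of 4 epithelial, 3 endothelial and 2 blood cell markers had. The amount of each collagen RNA in the cells was not given either. Less RNA of a gene and less CTCF on each of its molecules cannot be told apart by whether a peak was listed.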

How the data were processed

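CTCF eCLIP and input libraries of IMR90 cells were grouped by their titles into 4 groups of 2. The deposited data were 2 narrowPeak lists on hg38, input-normalized per the file headers. Each was attached to replicate 1 of its condition but named for both replicates, and was taken as their joint list, which is an assumption. The deposited signal value is the authors' score, on a scale not given. The deposited -log10 p has a ceiling of 400. Aligner, peak caller and thresholds are not given in the sources used here, and depth is unknown.

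Peaks were assigned to RefSeq spans (GRCh38.p14, 59788 genes) by at least 1 base, on the gene's strand where a promoter table gave it. That table gave a strand for 5 of the 8 members. Genes without a strand there took peaks of either strand, so counts over all genes may include peaks on the opposite strand. A peak over several genes went first to a small RNA gene, then to a protein-coding, a long non-coding RNA and any other gene, the shorter first. Peaks within 50 nt were merged. Assignment to the 8 members and merging were checked on simulated peaks, and the choice among several genes was not. Scripts used Python 3.11.15, pandas 2.3.3 and scipy 1.17.1, and intervals are exact Clopper-Pearson. No test was run. Members and gene lists were chosen with earlier results of these data known. Named were all 8 members, every listed gene of the other lists, and the 5 genes nearest by signal percentile; the genes with at least 3 proliferating sites were chosen after their values were seen. Alternatives changed merging, minimum strength, list length, strand, overlap and width. Sequences of the sites were not used here.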

Additional observations from a re-analysis of the deposited data

How the results depend on the processing

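For 11 results, 51 alternative values were computed. Of these, 13 were chosen after seeing the data, with peaks at least 10 nt wide or a senescent list shortened by -log10 p. A value was taken as kept within 1.5 times a count, within the counting interval of a share or within the spread of positions, and any change of a median signal value was taken as a move. So judged, 35 were kept and 16 moved (10 counts, 2 shares and 4 signal medians). Each result is a single count, share, median or position without a direction, so none could be reversed. The upper 50% by signal value held 6 proliferating sites in 4 genes and 2 senescent sites in 1 gene. A senescent list shortened to its 147 peaks of highest signal value held 0 sites, 0 genes and a share of 0%, and one shortened by -log10 p held 2 sites in 1 gene. The cut by signal value lay above the value of every proliferating collagen peak. Counted as single peaks, the senescent collagen sites numbered 11. A minimum -log10 p of 10 raised the proliferating share to 32.8%. With 50% of both sites required to overlap, 1 COL6A2 site was shared. The highest signal value per gene had a median of 3.57 over the proliferating and 4.597 over the senescent genes; this became 3.23 and 3.88 with the peak of highest -log10 p, and 3.35 and 3.66 as a mean weighted by width. No paired analysis was possible because each condition came as 1 joint list, so no replicate could be left out in turn either. Unknown depth limits what the absence of a peak means.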
